A study of Mus musculus with 6 samples.

Results

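The Mock cultures are mouse fibroblast-like synoviocytes that had received an empty adenovirus, and their baseline transcriptome is described here from 3 of the study's 6 arrays. The labels name these arrays Mock replicates 1, 2 and 3, and the members are the 22180 genes that have a probe set of their own on the array, each represented by 1 probe set. The cells came from knee synovium of C57BL6 mice, were freed with collagenase over 4 h, and were taken at passages 4 to 8. The empty virus was left on them for 2 h at 800 infectious units per cell (multiplicity of infection, MOI) and then kept for 24 h. The other 3 arrays, of cells given a virus carrying Epas1 (Ad-Epas1) on the same schedule, were used only to choose which probe set stands for a gene, and no comparison with them was made. No uninfected culture enters the description, so every level is that of cells exposed to adenovirus. The labels state a purity by flow cytometry of over 90% CD90-positive and under 1% CD14-positive cells. The replicates are called biological there, without a statement that the 3 Mock cultures came from different animals rather than 1 pool, so the spread between them may be partly technical.

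Fibroblast-like synoviocytes line the joint cavity together with macrophages and lie in the loose tissue under that lining. They make the matrix of the synovium and the lubricant and hyaluronan of joint fluid, and in arthritis they are known for releasing matrix-degrading enzymes and chemokines. Cells of the lining layer are known for lubricin (Prg4), and those of the sublining for CD90, the product of Thy1.

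Levels are log2 expression values, so a difference of 1 is a 2-fold difference in signal. As a background, 1394 olfactory and vomeronasal receptor genes were used, which serve smell and pheromone sensing in sensory neurons. Their median level was 4.30, and their 95th percentile was 6.56, 6.55 and 6.48 on replicates 1, 2 and 3. A gene was called above background where it exceeded that limit on all 3 arrays. This held for 13792 of 22180 genes (62.2%), and for 58 of the receptor genes (4.16%). A further 966 genes passed on 1 or 2 arrays, and 7422 passed on none. Counts of list members above background given below are to be read beside the 62.2% of all genes. The median gene lay at 7.29. Of all genes, 2733 (12.32%) reached 10 or more, among them 1 receptor gene, and 267 reached 12 or more, among them no receptor gene. That 1 receptor gene was Vmn1r233, at 11.45, 11.61 and 11.60 on replicates 1, 2 and 3, whose other probe set had a mean of 4.39. Ranks order probe-set signals rather than numbers of transcripts, because probes differ in how strongly they bind. By gene class, 67.5% of 18964 protein-coding genes, 27.9% of 1926 long noncoding RNA genes and 75.0% of 80 small nucleolar RNA genes were above background.

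**Figure D1:**
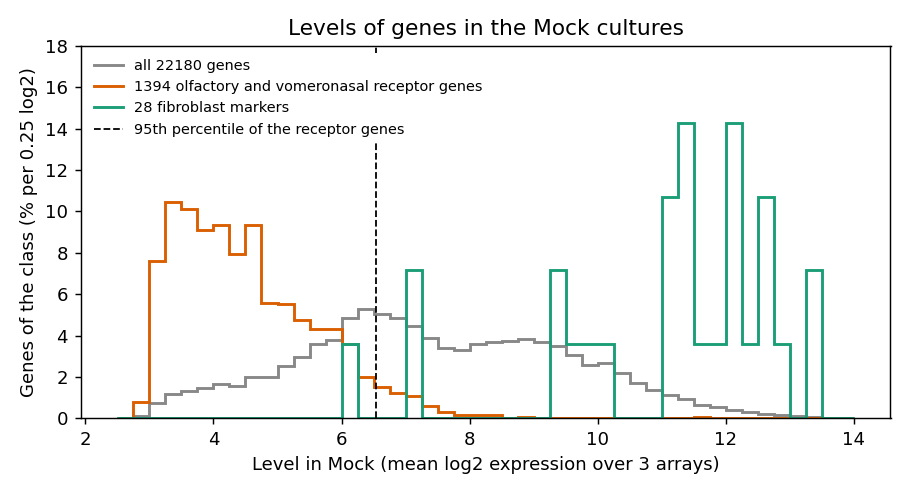
Share of genes (% per 0.25 log2) against the level in Mock (mean log2 expression over 3 arrays) for all 22180 genes, the 1394 receptor genes and the 28 fibroblast markers, with a dashed line at the receptor genes' 95th percentile. The receptor genes peak well to the left of the line, all genes spread over both sides of it, and all but 1 of the fibroblast markers lie to its right.

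The highest levels belonged to genes of cell structure, matrix, mitochondria and innate defence. From here on, 3 levels given in a row are those of Mock replicates 1, 2 and 3 in that order. B2m, the light chain of MHC class I molecules, was highest, at 13.58, 13.62 and 13.63. Vim, the intermediate filament protein of mesenchymal cells, followed at 13.46, 13.50 and 13.54, and fibronectin (Fn1) at 13.42, 13.45 and 13.48. These 3 genes varied little, with an SD between arrays of 0.02, 0.04 and 0.03. Thbs1, a matrix glycoprotein, came next at 13.41 ± 0.11 (SD, n = 3). Among the 30 highest named genes were also 6 that encode respiratory chain proteins on the mitochondrial genome (ND4, COX1, CYTB, ND1, ND3 and ND5), the ferritin heavy chain Fth1, and the translation genes Rps6, Rpl41, Rpl21 and Eef1a1. Matrix genes in that set were Bgn, Prelp, Ccn5 and Lox, of which Lox cross-links collagen and elastin. The set further held the protease Ctsb, the protease inhibitor Timp1, the noncoding RNAs Rn7sk and Malat1, and Penk, the precursor of enkephalin peptides, at 12.75, 13.10 and 13.15.

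Among the highest genes, 2 encode secreted proteins of inflammation. Ccl5, a chemokine for T cells and monocytes, had rank 6 of all genes, at 13.21, 13.43 and 13.39. Saa3, an acute-phase serum amyloid protein made locally in tissue, stood at 13.43, 13.07 and 13.12. Both lay above the highest receptor gene on every array. Odf1, a structural protein of the sperm tail, also ranked among the highest 30, at 13.02, 12.98 and 13.01, but its other probe set had a mean of 5.64, below the limit. Over the 1082 genes with several probe sets, all of a gene's probe sets were above the limit for 449, none for 180, and the probe sets disagreed for 453.

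Most fibroblast markers, those of the labelled cell type, were high. Of 28 fibroblast markers, 27 were above background, with a median level of 11.47 and a median percentile of 97.5 among all genes. Thy1, whose product CD90 the study stained, stood at 11.17, 11.06 and 11.06, which is the 96.1 percentile. Cdh11, the cadherin that joins synovial fibroblasts to each other, stood at 11.86, 12.14 and 12.15. Pdgfra and Pdgfrb, receptors for platelet-derived growth factor, had means of 11.44 and 11.71, and the mesenchymal transcription factor Prrx1 had a mean of 12.05. Of the 28 markers, 21 reached 10 or more. Fap passed, but at 7.33, 7.08 and 7.05, the 47.8 percentile. Tcf21, a transcription factor of some fibroblast lineages, was the 1 that did not pass, at 6.11, 6.40 and 5.97.

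Markers of both synovial layers were present in the same cultures. Of 14 lining markers, 11 were above background. Prg4, the joint lubricant, stood at 12.65, 12.22 and 12.28, and Mmp3, a matrix metalloproteinase, at 12.78, 12.57 and 12.54. Both lay above the 99th percentile of all genes. Vcam1, an adhesion molecule of lining cells, stood at 10.88, 10.92 and 10.92. The lining markers not above background were Cd55 (6.96, 6.19 and 6.41), Clic5 (6.26, 6.47 and 6.65) and the hyaluronan synthase Has1 (6.38, 6.43 and 6.33). Of these, Cd55 exceeded the limit on replicate 1 and Clic5 on replicate 3. Of 14 sublining markers, 12 were above background, with a median of 10.54. The chemokine Cxcl12, which holds leukocytes in tissue, stood at 11.88, 12.03 and 11.99, and Gas6, a ligand of the Axl receptor, at 12.06, 12.30 and 12.32. Pi16 and Clec3b passed, but with means of 6.91 and 6.98, below the median gene at 7.29. Dpp4 and Col14a1, which mark other sublining fibroblasts, were not above background, with means of 6.24 and 6.47.

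Macrophage and myeloid markers were also high. Of 29 such markers, 26 were above background, with a median level of 10.31 and a median percentile of 90.8, and 16 reached 10 or more. Lysozyme (Lyz2) stood at 12.94, 12.81 and 12.75. The complement component gene C1qb stood at 12.67, 12.56 and 12.61. Adgre1, which encodes the macrophage antigen F4/80, stood at 12.32, 11.68 and 11.69, higher on replicate 1 than on the others. Csf1r, the receptor for the macrophage growth factor CSF1, stood at 11.48, 11.29 and 11.31. Cd14, whose product the study stained to exclude macrophages, stood at 10.42, 9.99 and 10.14, which is the 89.7 percentile. Ptprc, the common leukocyte antigen CD45, had a mean of 9.56. The markers not above background were Cd163, Timd4 and Vsig4, with means of 6.04, 5.86 and 4.56. Summed on a linear scale, the 29 markers reached 64558, 53670 and 54346 on replicates 1, 2 and 3, and the 28 fibroblast markers 98300, 100726 and 102723. In bulk RNA, fewer cells of a type and less RNA per cell cannot be told apart, and the levels give no share of cells.

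**Figure D2:**
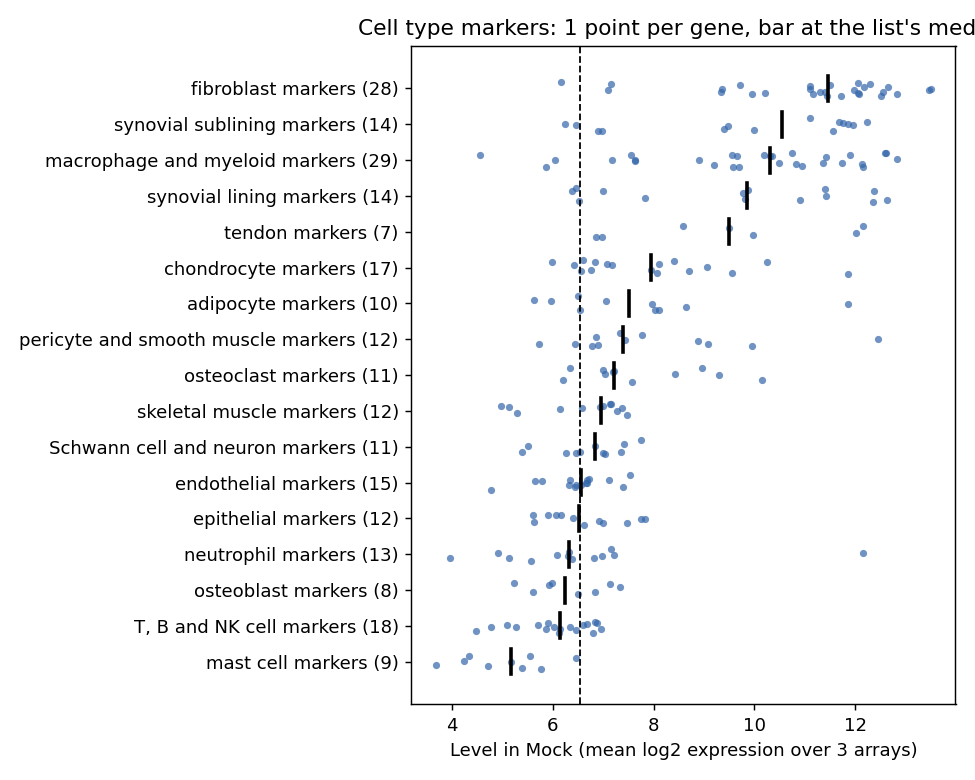
Level in Mock (mean log2 expression over 3 arrays) of each marker gene, 1 row per cell type list with its number of genes in brackets, a bar at each list's median and a dashed line at the receptor genes' 95th percentile. Fibroblast, sublining, macrophage and lining lists lie furthest to the right, with medians of 11.47, 10.54, 10.31 and 9.85, and mast cell markers lie wholly to the left of the line.

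Other cell types fell into those near the background and those with part of their markers well above it. Of 9 mast cell markers, none was above background. Of 18 T, B and NK cell markers, 5 passed, at means between 6.68 and 6.96, and the T cell receptor component genes Cd3e, Cd3d and Cd3g were not among them. Of 15 endothelial markers, 6 passed, among them Erg, Egfl7 and Cdh5, with means of 7.53, 7.40 and 7.12. Pecam1, above the limit on 2 arrays, and Tek did not pass. Of 13 neutrophil markers, 4 passed. One of these, Lcn2, which encodes the iron-siderophore binding protein lipocalin 2, stood at 12.33, 12.14 and 12.02, while S100a8, S100a9 and Ly6g did not pass. Osteoclast markers passed for 9 of 11, with a median of 7.22. Dcstamp and Calcr did not pass, while Acp5, Ocstamp and Atp6v0d2 did, with means of 8.43, 7.20 and 7.03.

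Cartilage and tendon genes were measured at higher levels than those of bone. Of 17 chondrocyte markers, 13 passed. Comp, a cartilage and tendon matrix protein, stood at 11.44, 12.09 and 12.05, and Sox9, the transcription factor of the chondrocyte lineage, at 9.67, 10.50 and 10.58. Both were lower on replicate 1. The cartilage collagen gene Col2a1 stood at 9.08, 9.14 and 8.96, and Acan, the main cartilage proteoglycan, was not above background, at 6.52, 6.76 and 6.51. Of 7 tendon markers, 6 passed, among them Fmod at 12.08, 12.18 and 12.17, Thbs4 at 11.87, 12.09 and 12.09, and the tendon transcription factor Scx at 9.33, 9.59 and 9.58. Osteoblast markers passed for 3 of 8, and neither Sp7 nor Bglap was among them. Of 12 pericyte and smooth muscle markers, 10 passed, with a median of 7.39 over the list. Acta2, the actin of smooth muscle and myofibroblasts, was the 1 member at 10 or more, at 12.23, 12.55 and 12.59. Of 10 adipocyte markers, 6 passed, among them Pparg, Cebpa and Fabp4, with means of 8.65, 8.11 and 7.97. Lpl, which releases fatty acids from lipoproteins, stood at 11.81, 11.87 and 11.87, whereas the adipocyte hormone genes Adipoq and Lep were not above background.

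Matrix and its processing took many of the high ranks. Of 48 matrix glycoprotein and proteoglycan genes, 45 were above background, with a median of 10.96. All 21 collagen biosynthesis enzymes passed, with a median of 11.30. Of 44 collagen genes, 37 passed, but their median was 7.46. Only 10 collagen genes reached 10 or more, including Col12a1 (12.57, 12.65 and 12.66), Col1a1 (12.56, 12.56 and 12.54) and Col1a2 (12.26, 12.32 and 12.28). Postn, a matricellular protein, differed more between cultures, at 12.00, 12.73 and 12.81, with replicate 1 lowest.

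Matrix-degrading enzymes and their inhibitors were both among the high genes. Of 22 matrix metalloproteinase genes, 16 passed (72.7%, against 62.2% of all genes) and 5 reached 10 or more. Mmp2, which cuts denatured collagen, stood at 12.11, 12.05 and 12.06. The collagenase gene Mmp13 stood at 12.53, 11.48 and 11.49, so replicate 1 was apart. Mmp14, which activates Mmp2 at the cell surface, stood at 11.58, 11.45 and 11.44. Mmp8 and Mmp1a did not pass on all arrays, with means of 6.82 and 3.93. Among the inhibitors, Timp1 (12.95, 13.05 and 13.03), Timp3 (12.49, 12.99 and 13.01) and Timp2 (12.66, 12.77 and 12.73) were all above the 99th percentile, while Timp4 stood at 6.27, 6.27 and 6.40. Of 18 ADAMTS genes, 11 passed (61.1%, against 62.2% of all genes). The aggrecan-cleaving enzyme gene Adamts5 stood highest of these, at 12.18, 12.04 and 12.08, against 8.12, 7.77 and 7.53 for Adamts4. Cathepsin genes fell into separate ranges: 12 of 23 passed, 10 of these at 10 or more, with Ctsb, Ctsd and Ctsz highest. Ctsk, a collagen-cleaving cathepsin of osteoclasts and synovial fibroblasts, stood at 10.36, 9.99 and 10.09.

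Chemokine genes passed for 25 of 34 (73.5%, against 62.2% of all genes), and 10 reached 10 or more (against 12.32% of all genes). The monocyte chemokine gene Ccl2 stood at 13.00, 12.38 and 12.38, Ccl7 at 12.89, 12.14 and 12.32, and Ccl3 at 12.56, 11.97 and 12.01. All 3 were highest on replicate 1. Of 34 interleukin genes, 16 passed, and only Il1rn (10.52, 10.44 and 10.49), which encodes the antagonist of the interleukin-1 receptor, and the alarmin gene Il33 (10.08, 10.64 and 10.66) had a mean of 10 or more. Tnf stood at 10.80, 10.03 and 10.05. For bone resorption, Tnfsf11, which encodes RANKL, stood at 8.23, 7.13 and 7.28, and Tnfrsf11b, its decoy receptor osteoprotegerin, at 11.67, 12.08 and 12.01, so the pair differed in opposite directions on replicate 1. Toll-like receptor genes passed for 11 of 12, led by Tlr3, a sensor of double-stranded RNA, at 10.22, 10.13 and 10.22.

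Genes induced by interferon were widely measured, while most interferon genes were not. Of 33 interferon-stimulated genes, 31 were above background, with a median of 9.38. Ifitm3, which restricts virus entry, stood at 12.88, 12.92 and 12.92, Oasl2 at 11.48, 11.66 and 11.66, and Ifit1 at 11.27, 11.59 and 11.69. Mx1, an antiviral GTPase gene known to be defective in common laboratory strains, was not above background, at 4.77, 5.07 and 5.32. Of 19 interferon genes, 8 passed. Ifnb1, which encodes interferon beta, stood at 4.87, 4.42 and 4.69 and did not pass, and Ifna4 was highest, at 9.23, 9.15 and 9.14. Because every culture had received adenovirus, what the virus contributed to these levels was not tested.

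Genes used by adenovirus to enter cells passed for 16 of 17. The attachment receptor gene Cxadr stood at 7.45, 7.28 and 7.36, near the median of all genes, at the 51.1 percentile. The integrin genes that serve internalisation stood higher, with Itgav at 11.67, 11.56 and 11.55 and Itgb5 at 11.81, 11.88 and 11.77.

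In the HIF pathway, through which cells respond to low oxygen, 10 of 11 genes passed. Of the oxygen-regulated subunits, Hif1a stood at 12.31, 12.19 and 12.24, the 99.2 percentile. Epas1, which encodes HIF-2α and is the gene that the study's other virus delivers, stood at 8.67, 8.71 and 8.51, the 69.2 percentile. Hif3a was not above background, at 6.42, 6.29 and 6.43. Their shared partner gene Arnt stood at 10.99, 10.98 and 10.96, and the alternative partner Arnt2 at 9.10, 9.39 and 9.43. Of the prolyl hydroxylases that mark HIF subunits for destruction, Egln1 stood at 11.18, 10.93 and 10.94 and Egln2 at 9.39, 9.31 and 9.37. Egln3 stood at 9.15, 7.75 and 7.78 and was the pathway gene with the largest range between cultures. Vhl, which binds the hydroxylated subunits, had a mean of 8.60, Hif1an, which hydroxylates an asparagine of HIF subunits, 8.69, and Cited2, which competes with HIF for coactivators, 12.45. Of 24 glycolysis genes, 21 passed, with the isoforms Ldhc, Gapdhs and Pgk2, best known from sperm, not above background.

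Genes of position in the body were measured over a wide range of levels. Of 36 Hox genes, which set position along the body and limb axes, 27 were above background (75.0%, against 62.2% of all genes). Hoxc6 stood highest, at 10.07, 10.11 and 10.08, followed by Hoxa10 at 9.23 ± 0.20 (SD, n = 3) and Hoxd8 at 8.79, 8.84 and 8.79. Of the HoxB genes, Hoxb9 was highest, with a mean of 7.63, and Hoxb2, Hoxb6, Hoxb7, Hoxb8 and Hoxb13 were not above background. Hoxa3, Hoxd1, Hoxd12 and Hoxd13 of other clusters were not above it either. Tbx4 and Pitx1, transcription factors of the hindlimb, had means of 9.42 and 8.73, and Tbx5, of the forelimb, a mean of 7.47. These 3 were chosen after their values were seen. Limb and mesenchymal transcription factors as a whole passed for 45 of 48.

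Of 6 sex-linked genes, 4 were above background (66.7%, against 62.2% of all genes). Uty, Eif2s3y and Kdm5d of the Y chromosome had means of 9.72, 9.13 and 8.94 and passed. Sry, which starts testis formation, stood at 6.70, 6.71 and 6.65, just above the limit. Xist, the RNA of the inactive X chromosome, stood at 5.60, 5.49 and 5.58 and was not above background, and neither was Usp9y, also of the Y chromosome, at 4.17, 4.22 and 3.96. The order was alike on all 3 arrays, and the labels used here give no sex of the mice.

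Gene families of other tissues gave a view of how far the limit separates. Taste receptor genes passed for 3 of 38, defensin genes for 10 of 51, liver secretory genes for 6 of 21, cytochrome P450 genes for 25 of 90 and germline genes for 9 of 23. Keratin genes passed for 23 of 49, but none reached 10, and Krt8 was highest, at 7.49, 7.41 and 7.51. Levels between about 6.5 and 7.5 therefore held members of lists that belong to other tissues as well as members of the synovial ones. By contrast, genes that all cells use passed nearly throughout. All 18 heterogeneous nuclear ribonucleoprotein genes and all 17 translation factor genes passed, and 72 of 76 respiratory chain and ATP synthase genes did. Rps16, a ribosomal protein gene, was listed at 6.85, 6.69 and 6.42 and Psma5, a proteasome subunit gene, at 5.59, 5.54 and 5.54, so a low level on this array did not always mean a gene of other tissues.

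Among 478 microRNA genes, 29.3% were above background and 7 had a mean of 10 or more. The probes read whole transcripts, so such a level can come from the hairpin or its host RNA and is no measure of the mature microRNA. Mature sequences were in the RefSeq table (GRCm38.p6) for 420 of the 478. Those of the named genes with the highest levels and of the microRNA gene that differed most between cultures are shown, with the seed, bases 2 to 8, in capitals.
miR-692 (Mir692-1, chr17:6895259-6895279, minus strand): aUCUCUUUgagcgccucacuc
miR-1195 (chr17:70860558-70860580, minus strand): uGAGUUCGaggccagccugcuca
miR-5125 (chr17:23823339-23823358, plus strand): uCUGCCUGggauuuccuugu
miR-125b-5p (Mir125b-1, chr9:41581940-41581961, plus strand): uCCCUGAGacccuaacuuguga
No 2 of these 4 seeds are the same. Mir692-1 stood at 12.57, 12.50 and 12.53, Mir1195 at 10.43, 10.57 and 10.48, and Mir5125 at 10.61, 10.15 and 10.27. Mir125b-1 stood at 5.17, 7.18 and 6.42, a range of 2.01, and was above the limit on replicate 2 alone. Mir5099 and Mir449b, with means of 13.22 and 12.41, were higher than all of these.

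Promoter composition differed between genes of low and of high level. RefSeq windows of 250 bases before the annotated start were at hand for 15359 of 18964 protein-coding genes (81.0%). The ratio of observed to expected CpG dinucleotides was followed over 10 classes of equal size by level, and had a median of 0.123 in class 1, the lowest, and 0.759 in class 10, the highest. Among the receptor genes it was 0.104, over 1183 of 1394 genes. The motif TATAAA on either strand was in 32.4% of windows of class 1 and 7.4% of those of class 10, in 37.4% for the receptor genes, and in 11.9% over all protein-coding windows. Classes 3, 4 and 5 had windows for 79.9%, 76.6% and 78.9% of their genes, under 80%, and are not shown. For many receptor genes the annotated start is the coding start, so their windows need not be promoters. The receptor genes also make up part of the lowest classes. Their median level of 4.30 lies in class 1, which ends at 4.91, and no value for that class without them was computed.

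The last 100 bases before the start of 3 genes are shown, with CG dinucleotides in capitals. Rps6 had rank 15 of all genes, Lyz2, of the macrophage and myeloid markers, had rank 51, and Olfr484 (8.48, 8.31 and 8.33) was among the highest receptor genes.
Rps6 (chr4:86857368-86857467, minus strand): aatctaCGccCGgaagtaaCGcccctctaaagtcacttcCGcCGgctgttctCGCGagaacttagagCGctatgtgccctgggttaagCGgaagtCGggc
Lyz2 (chr10:117282273-117282372, minus strand): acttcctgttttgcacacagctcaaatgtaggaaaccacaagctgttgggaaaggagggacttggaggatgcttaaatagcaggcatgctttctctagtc
Olfr484 (chr7:108125262-108125361, minus strand): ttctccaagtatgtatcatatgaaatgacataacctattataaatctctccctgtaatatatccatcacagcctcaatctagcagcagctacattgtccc
The printed stretch of Rps6 holds 10 CG dinucleotides, while those of Lyz2 and Olfr484 hold 0. Lyz2 thus had a level in class 10 and a window without the composition common there. Olfr484, with a mean of 8.38, lay in class 7, where the median CpG ratio was 0.741. Only Rps6 of the 3 therefore goes with the contrast between classes.

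The 3 Mock arrays agreed closely for most genes. The median SD over 3 arrays was 0.09 on the log2 scale, the 90th percentile 0.215 and the 99th percentile 0.447. Over 10 equal classes of all genes by level, the median SD was 0.116 in the lowest class and 0.0618 in the highest. Over all 22180 genes, Pearson's r across genes was 0.9938 between replicates 1 and 2, 0.9935 between 1 and 3, and 0.9977 between 2 and 3. These values describe pairs of arrays that share 1 normalization, and genes are not independent replicates. Of the 100 highest genes, 85 were shared by all 3 arrays.

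Where the cultures did differ, replicate 1 was usually the one apart. A range between arrays of 1 or more, a 2-fold difference, was found for 109 genes (0.491%). Replicate 1 lay farther from the middle value in 105 of the 109, replicate 2 in 1 and replicate 3 in 3. Replicate 1 was higher in 58 genes (0.261%) and lower in 47 (0.212%). Between replicates 2 and 3 no gene differed by 1 or more, while 83 differed between 1 and 2 and 98 between 1 and 3. Over all genes replicate 1 was the array apart in 48.5%, replicate 2 in 24.0% and replicate 3 in 27.5%. Replicate 1 was the highest array for 42.3% of all genes and the lowest for 35.1%. Single cultures have no replicate, so no test was made, and the labels used here give no batch or date that separates replicate 1.

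**Figure D3:**
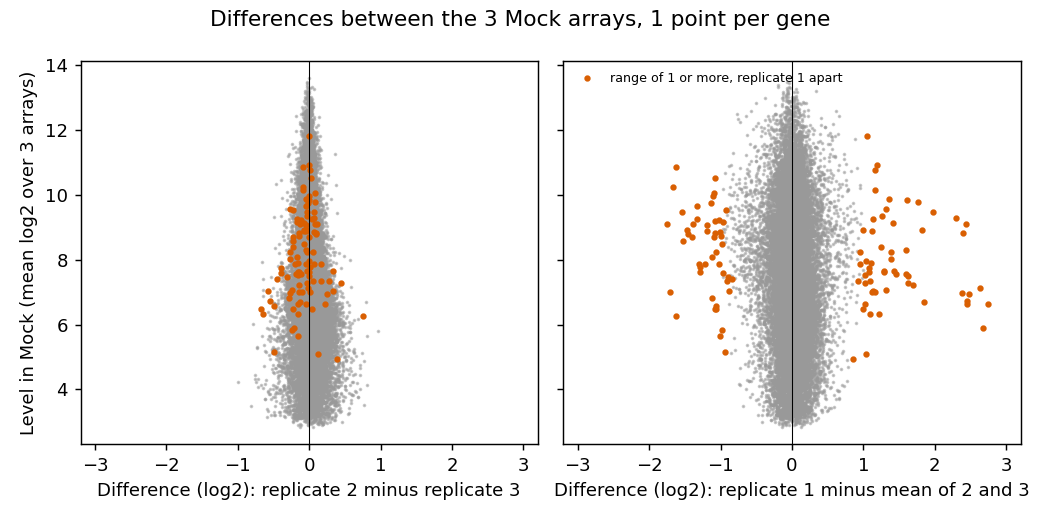
Difference between arrays (log2; replicate 2 minus 3 at left, replicate 1 minus the mean of 2 and 3 at right) against the level in Mock (mean log2 over 3 arrays), 1 point per gene, with genes of range 1 or more and replicate 1 apart in orange. The left cloud stays within 1 of the zero line, and in the right panel 58 of the 105 orange genes lie right of that line and 47 left of it.

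The genes higher on replicate 1 by this measure included 7 of 34 chemokine and 3 of 34 interleukin genes, against 0.261% of all genes. Il1a, an interleukin-1 cytokine, showed the largest range, at 8.47, 5.65 and 5.80, and was above the limit on replicate 1 alone. Il1b stood at 8.57, 6.06 and 6.34, again above it on replicate 1 alone. Il6, a cytokine of the acute-phase response, stood at 10.43, 7.96 and 8.10 and was above it on all 3. The neutrophil chemokine gene Cxcl3 stood at 7.67, 4.88 and 5.10, and Cxcl2 at 8.55, 7.03 and 7.14. Ccl20, a chemokine for cells that bear Ccr6, stood at 8.57, 6.95 and 6.95. Of the 34 chemokine genes, 8 (23.5%, against 0.491% of all genes) had a range of 1 or more, 7 of them higher and 1 lower on replicate 1. The 1 that was lower, Cxcl9, a chemokine induced by interferon gamma, stood at 9.79, 11.37 and 11.45.

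Nos2, Acod1 and genes of C-type lectin receptors were in the same set. Nos2, the inducible nitric oxide synthase, stood at 10.73, 8.35 and 8.24, and Acod1, which makes itaconate, at 8.60, 6.24 and 5.99. Clec4a1 and Clec4a2, C-type lectin receptors of myeloid cells, stood higher on replicate 1 by 2.63 and 1.85 than on the mean of the other two, and Clec4e stood at 9.35, 7.74 and 7.78. Pf4, a chemokine gene of platelets and macrophages, is not among the 34 chemokine genes counted above. It stood at 10.83, 8.57 and 8.50, and the formyl peptide receptor gene Fpr2 at 8.36, 5.64 and 6.19. Of the 29 macrophage and myeloid markers, 25 were highest on replicate 1 (against 42.3% of all genes), and the median deviation of the list from each gene's mean was 0.13, -0.07 and -0.06 on replicates 1, 2 and 3. None of the 29 had a range of 1 or more, the largest being that of Mrc1, the mannose receptor, at 10.95, 10.02 and 9.96. The part of macrophages in the difference was not tested. Also higher on replicate 1 were Grem1, an antagonist of BMP ligands, at 10.12, 8.27 and 8.33, and Fabp7, a fatty acid binding protein, at 10.80, 8.81 and 8.84.

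The genes lower on replicate 1 included Cnmd and 2 of the 48 matrix glycoprotein and proteoglycan genes. Cnmd, which encodes the cartilage protein chondromodulin, stood at 9.14, 10.76 and 10.84. Of the 17 chondrocyte markers, 7 were highest and 8 lowest on replicate 1, and 0 had a range of 1 or more. The small leucine-rich proteoglycan genes Omd and Aspn stood at 8.17, 9.49 and 9.63 and at 7.77, 9.17 and 9.17. Apod, a lipocalin of sublining fibroblasts, stood at 8.45, 10.03 and 9.96, and the early response transcription factor gene Egr1 at 7.57, 8.99 and 9.21. Pcdh9, a protocadherin gene, stood at 7.94, 9.73 and 9.64, the largest drop among genes above background on all 3 arrays. The imprinted gene Mest stood at 8.38, 9.63 and 9.79.

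Cell cycle genes lay lower on replicate 1 as a list. All 39 were above background, 34 of them were lowest on replicate 1 (against 35.1% of all genes), and their median deviation was -0.23, 0.13 and 0.12. Kif11, the motor of spindle assembly, stood at 8.47, 9.49 and 9.61 and was the 1 member with a range of 1 or more. The survivin gene Birc5 stood at 6.96, 7.87 and 7.78. Cdkn1a, which encodes the cell cycle inhibitor p21, was the highest of the list, at 12.61, 12.50 and 12.51. Actin cytoskeleton genes were lowest on replicate 1 in 28 of 38 (against the same 35.1%), with a median deviation of -0.12 there, and Tagln, a smooth muscle gene, stood at 9.51, 10.22 and 10.13.

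**Figure D4:**
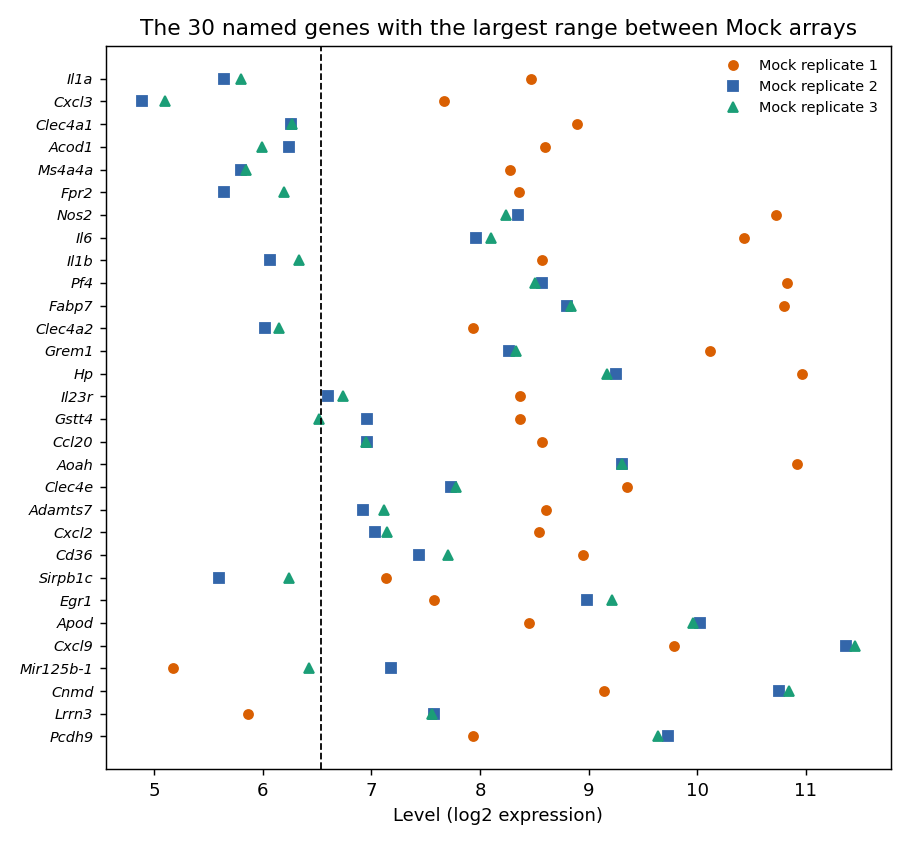
Level (log2 expression) on each Mock array of the 30 named genes with the largest range between arrays, with a dashed line at the receptor genes' 95th percentile. Replicate 1 is set apart from replicates 2 and 3 in nearly every row, with Il1a widest at 8.47 against 5.65 and 5.80, and the exceptions are Mir125b-1, where all 3 differ, and genes such as Sirpb1c and Fpr2, where replicates 2 and 3 also part.

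Promoter windows of the genes higher on replicate 1 were searched for GGNNTTTCC, a shortened form of the site bound by NF-κB, on either strand. Windows were at hand for 47 of the 58 genes (81.0%), and 10 of these (21.3%) held the motif, against 746 (4.9%) of all protein-coding windows. The motif and its length were chosen after the values were seen. The 10 genes were Cxcl1, Cxcl2, Cxcl3, Ccl20, Il6, Tnfaip3, Il23r, Acod1, Ms4a4a and Ccr3. Of the 34 chemokine genes, 7 belong to the set higher on replicate 1. Over all chemokine genes, whether or not they differed between arrays, 7 of 23 windows held the motif. Those windows covered 67.6% of the family, and for the genes lower on replicate 1 windows covered 72.3%. Both are under 80%, so no share is read for either. Whether the motif goes with the difference on replicate 1, beyond the gene families in the set, was not tested. The last 100 bases before the start of 5 of the 10 are shown because these genes differ together between the cultures, with each match in capitals (GRCm38.p6, plus strand).
Cxcl1 (chr5:90891145-90891244): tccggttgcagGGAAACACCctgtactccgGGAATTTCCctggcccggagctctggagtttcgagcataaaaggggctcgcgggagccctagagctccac
Cxcl2 (chr5:90903799-90903898): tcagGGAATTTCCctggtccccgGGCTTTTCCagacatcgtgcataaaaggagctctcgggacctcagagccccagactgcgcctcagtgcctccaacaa
Cxcl3 (chr5:90786001-90786100): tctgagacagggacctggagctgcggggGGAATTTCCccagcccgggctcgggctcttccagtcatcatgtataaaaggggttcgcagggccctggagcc
Il6 (chr5:30013014-30013113): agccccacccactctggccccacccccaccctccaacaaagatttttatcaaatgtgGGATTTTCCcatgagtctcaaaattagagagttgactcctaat
Ccl20 (chr1:83116666-83116765): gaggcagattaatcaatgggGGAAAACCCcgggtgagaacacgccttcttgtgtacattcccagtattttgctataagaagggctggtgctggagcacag
Cxcl1 and Cxcl2 each hold 2 matches in this stretch and the others 1, and in Ccl20 and 1 of those in Cxcl1 the match is on the opposite strand. Cxcl1 stood at 10.02, 8.90 and 8.86 on the 3 arrays. A match describes the letters of the window and not binding of a factor, and Cxcl1, Cxcl2 and Cxcl3 are paralogs that share sequence and lie in 1 cluster.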

How the data were processed

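Total RNA (300 ng per sample) was labelled and hybridised to Affymetrix whole-transcript arrays, per the labels' protocols. Per the submitters' processing notes, RMA was run in Affymetrix Expression Console 1.3.1, and the authors deposited its log2 value of every probe set on every array. RMA corrects background, makes the arrays' distributions alike and summarises probes, which hides a difference common to most genes and compresses large ones. Of 41345 probe sets, 23521 carried 1 gene symbol, 1814 several and 16010 none. A gene was represented by its probe set with the highest mean over 6 arrays. Arrays have no read depth, and 3 arrays limit the precision. No group was compared with another and no test was made. Levels, SD and ranges were computed in Python 3.11.15 with pandas 2.3.3, and checked on simulated data. The members and the 72 lists were chosen with earlier results of these data known. The mitochondrial list, the final wording of the background, integrin, interleukin and microRNA patterns, and the restriction of promoters to protein-coding genes were set after the data were seen. Genes named were the 30 highest, the 30 with the largest range, up to 5 high and 1 low member of each list with its 2 widest, all HIF, Hox, TIMP and sex-linked genes, all cell type markers and a few preset genes. Sequences are from RefSeq tables of GRCm38.p6, with the earliest listed entry for a gene. The sources used here give no genome build for the array's probes. Probe sets without a gene or with several, and listed genes that lack a probe set of their own, are not analysed here.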

Additional observations from a re-analysis of the deposited data

Results flagged for a closer look

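Probe sets that the platform annotation pairs with no gene gave signal in the Mock cultures. Of 16010 such probe sets, 6178 (38.6%) lay above the receptor genes' limit on all 3 arrays, against 62.2% of named genes and 4.16% of the receptor genes. Their median level was 6.20. What they measure was not tested.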

How the results depend on the processing

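The count of genes above background (13792) stayed between 10119 and 16010 over the alternatives run, with the limit at the 99th or 90th percentile at the ends. The list counts depend on that limit where markers lie near it. At the 99th percentile, 5 osteoclast, 0 T, B and NK cell, 1 neutrophil, 1 endothelial, 5 pericyte and smooth muscle, 0 osteoblast, 0 skeletal muscle, 1 Schwann cell and neuron, 3 epithelial and 0 red cell markers passed. With taste receptor, defensin, keratin and germline genes as the reference (10722 genes above), these counts were 5, 0, 1, 2, 5, 0, 1, 3, 3 and 0. At the 90th percentile, 10 T, B and NK cell, 9 neutrophil, 1 mast cell, 12 endothelial and 2 red cell markers passed. With the mean over the arrays as the rule, 2 red cell markers did, and leaving out an array gave 1 to 2. Over the other 54 lists, 46 of 648 counts moved by over 1.5 times. Without replicate 1 the median SD fell to 0.0523 and 0 genes had a range of 1 or more (leaving out an array in turn gave 0.0523 to 0.0854 and 0 to 98 genes), so both values rest on replicate 1; without replicate 2 or 3 the counts were 98 and 83. At a range of 1.5 or more, 31 genes remained, and replicate 1 was apart in all 31. Leaving out the macrophage, osteoclast and neutrophil markers left the 109 genes as they were, since none of those markers has a range of 1 or more. No paired analysis was possible because all results describe 1 group and come from no test. Signal near the background limits what can be said of genes between about 6 and 7.5.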
